A study of Mus musculus with 6 samples.

Results

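Heat shock proteins and cytosolic chaperones, the genes whose products fold new proteins and refold damaged ones, were examined in RNA-seq libraries of mouse regulatory T (Treg) cells differentiated with or without sorafenib (Sora), a multikinase inhibitor given in liver cancer. Members were chosen by symbol: the Hsp, Dnaja, Dnajb, Dnajc, Cct and Bag families, together with Tcp1, Hsf1, Hsf2 and St13. Hspa5, Hsp90b1, Dnajb9, Dnajb11 and Dnajc3, whose products work in the endoplasmic reticulum (ER), were left out of the set, which held 87 of the 22939 genes measured.

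The libraries fall into 3 labelled control (ctrl-Treg) and 3 labelled sorafenib (Sora-Treg). According to the methods of the study, naive CD4+ T cells came from lymph nodes and spleen of mice with GFP knocked in at Foxp3 (C57BL/6J background). They were activated through CD3 and CD28 and polarized with TGF-β1 and with antibodies that block IFN-γ and IL4, and the GFP+ cells were sorted. Both groups share the reporter allele, the activation, the polarization and the sort, and differ by label only in Sora. The cells are thus Treg cells induced in culture, not taken from a tumor, and the labels give neither the dose of Sora, nor the age of the mice, nor whether RNA of several mice or cultures was pooled. Nothing in the labels says that the 3 libraries of a group came from separate cultures or animals, so p-values measure the spread between these libraries, which may be technical.

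Chaperones work in relays. HSP70 proteins bind unfolded stretches, and J-domain proteins (the DNAJ families) deliver substrates and trigger ATP hydrolysis by HSP70. Nucleotide exchange factors, among them the HSP110 and several BAG proteins, release the substrate. It may then pass on to HSP90 or to a chaperonin, a barrel that encloses it. In activated T cells, growth and fast protein synthesis raise the demand for folding, and under stress the transcription factor HSF1 induces many of these genes.

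Total counts per library lay between 30727686 and 37717324, and the biological coefficient of variation, the spread between replicates beyond counting noise, was 4.29%. At this depth 3 counts, taken as the floor, equalled 0.0795 to 0.0976 CPM by raw library size, before TMM scaling, which covers counting error only. CPM values below are counts scaled to a common library size with TMM factors. Of 5 Treg markers 4 were higher and 0 lower, and 3 of 3 T cell markers were higher. Foxp3 was at a mean ± SD (n = 3) of 259 ± 8.99 CPM without and 272 ± 4.75 CPM with Sora, and its groups overlapped. The log2 fold changes of Foxp3 and Cd4, 0.07 and 0.06, were smaller in size than the shift of -0.12 under library-size scaling described below. The sign of these 2 differences is therefore not fixed. Of 6 myeloid markers, 5 were lower in Sora-Treg cells, and the summed level of the list was 92.1, 91.6 and 24.5 CPM across ctrl-Treg libraries and 22.2, 41.9 and 20.5 CPM across Sora-Treg libraries, with no marker at 0 in all of them. B cell markers summed to between 1.53 and 2.39 CPM in ctrl-Treg against between 0.251 and 0.365 CPM in Sora-Treg libraries, and 3 of the 4 were tested and lower. Of CD8 T cell markers, 1 of 2 was lower, and the 3 erythroid markers reached at most 4 counts. The part of these cells in the chaperone values was not tested beyond leaving out libraries, and in bulk RNA fewer cells of a type and less RNA per cell cannot be told apart.

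Of the 87 genes, 78 had enough counts to be tested, 21 were higher in Sora-Treg cells, 31 were lower, and 26 did not pass an adjusted p of 0.05 in edgeR's quasi-likelihood test. The 52 that passed were 66.7% of the tested members, against 59.6% of all genes. As shares of the tested members these were 26.9% higher and 39.7% lower, against a background of 29.7% and 29.9% of all 13463 genes tested. The share that was higher thus lay near the background and the share that was lower lay above it. The same background applies to the counts of each class and list below. Most changes were small. Beyond 2-fold, 0 members were higher and 1, Dnajc6, was lower (1.28% of those tested), where 6.3% and 4.97% of all genes passed. The 3 values of each group did not overlap for 54 members (69.2%), against 63.7% of all genes. The median log2 fold change was -0.03 over the members and -0.004 over all genes tested.

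How far the count of higher members reached depended on how the libraries were scaled. The fold changes here use TMM scaling, which sets a typical gene to no change, and scaling by library size alone moved the median of all genes by -0.12 on the log2 scale. Under that scaling 10 members were higher and 36 lower. Among called genes, 49.8% of all genes and 40.4% of the members were higher under TMM, against 33.8% and 21.7% under library size alone. Positive differences of less than about this shift therefore have no fixed sign, and small negative ones, which grew under library-size scaling, have no fixed size. All are given below relative to TMM. With ctrl-Treg libraries 1 and 2, the ones with more myeloid transcripts, left out, a choice made after seeing the data, 13 members were higher and 25 lower, so 34.2% of called members were higher, and 3131 of all genes were higher and 2956 lower (51.4% higher), with the remaining ctrl-Treg library assumed to vary like the Sora-Treg ones.

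The share of a library's counts taken by the 87 genes, which is on the library-size scale, was 1.604%, 1.583% and 1.606% across ctrl-Treg libraries and 1.337%, 1.322% and 1.338% across Sora-Treg libraries. All Sora-Treg libraries were thus below all ctrl-Treg libraries, with means of 1.598% ± 0.0125 and 1.332% ± 0.00938 (SD, n = 3). The exact two-sided permutation p was 0.1, the smallest that 3 against 3 can give. On the log2 scale the share differed by -0.26, and the summed TMM-scaled CPM of the members, 15360 ± 96.2 in ctrl-Treg against 13874 ± 83.9 in Sora-Treg cells (SD, n = 3), by -0.15. Hsp90ab1 held 21.5% and Hspa8 18.7% of the members' counts, so both genes weigh heavily in this share. The plot of log2 fold changes by class shows every tested member.

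**Figure D1:**
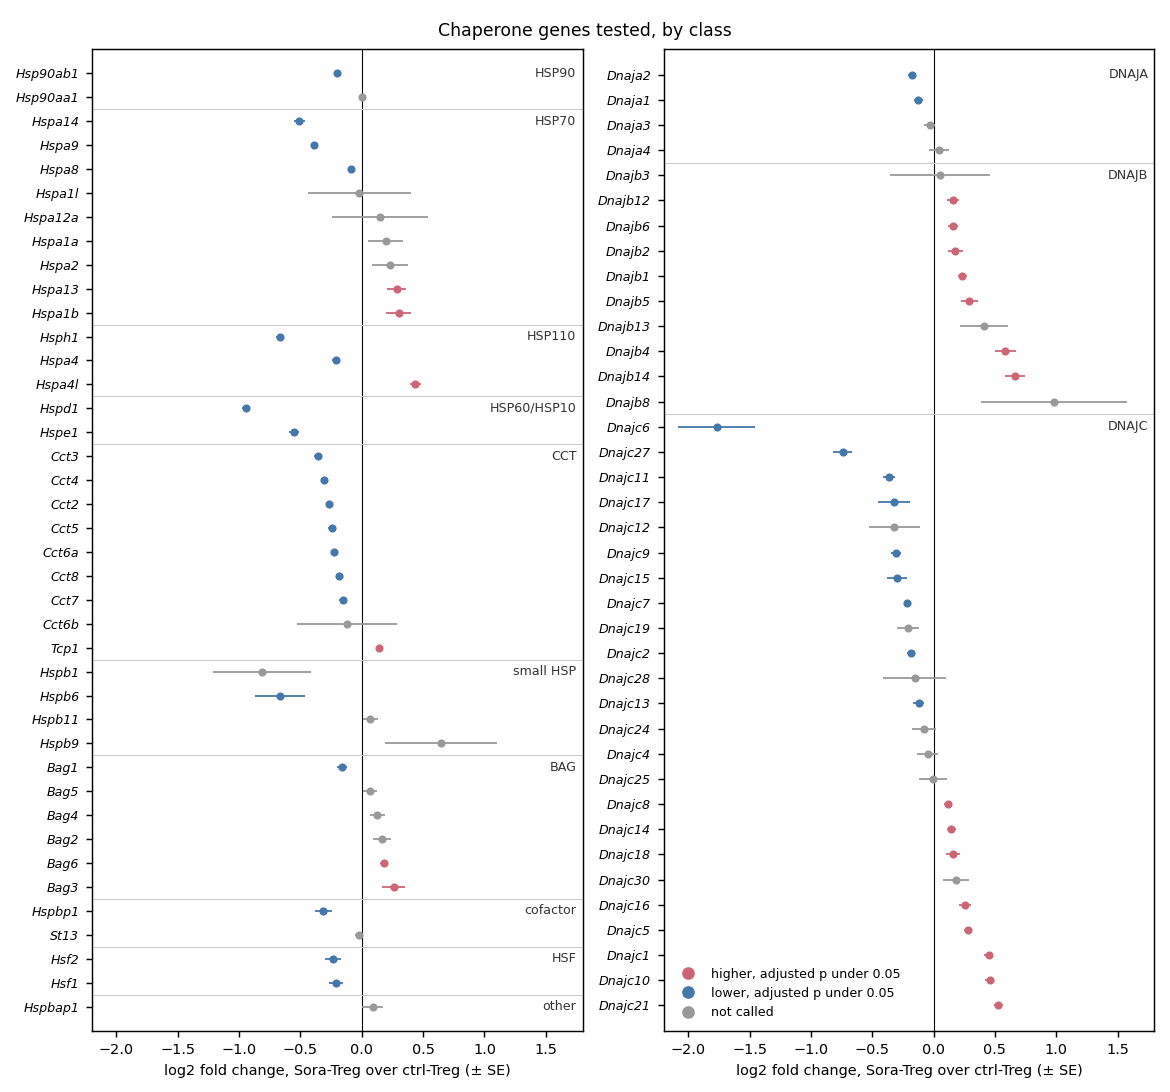
Log2 fold change of the 78 tested chaperone genes, Sora-Treg over ctrl-Treg (x axis, points with SE from edgeR, TMM scaling), by class, with red for higher, blue for lower and grey for genes that did not pass. Both HSP60/HSP10 genes and 7 of 9 tested CCT genes passed left of 0, all 10 tested DNAJB genes lie right of it under TMM scaling and 7 of them passed, and Dnajc6 is the outlying point at -1.77. The sign of Hsp90aa1, at 0.0006, is negative under library-size scaling.

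The member with the smallest adjusted p belonged to the mitochondrial chaperonin. Hspd1 encodes HSP60, the barrel in which imported mitochondrial proteins fold, and had 518, 524 and 528 CPM across ctrl-Treg libraries and 266, 287 and 263 CPM across Sora-Treg libraries. All Sora-Treg values lay far below all ctrl-Treg values, a fall of 48.0% (log2 fold change -0.94 ± 0.03, SE, with an edgeR adjusted p = 2.04e-17). Hspe1 encodes HSP10, the lid of that barrel. Its values were 232, 248 and 217 CPM in ctrl-Treg against 154, 167 and 156 CPM in Sora-Treg cells, again with a wide gap between the groups (log2 fold change -0.55 ± 0.04, adjusted p = 7.03e-11). Hspa9 encodes mortalin, the HSP70 of the mitochondrial matrix, which also pulls proteins through the import channel, and went from 730, 742 and 730 CPM to 559, 564 and 562 CPM (log2 fold change -0.39 ± 0.02, adjusted p = 3.09e-12). The Hspa9 values were nearly the same in all libraries of a group, whereas those of Hspe1 ranged from 217 to 248 CPM in ctrl-Treg cells.

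Hspd1 and Hspe1 are neighbours transcribed in opposite directions from a shared stretch of chromosome 1, and the ratio of their counts differed between the groups without overlap. This ratio of Hspd1 to Hspe1 within a library was 2.26 ± 0.162 in ctrl-Treg against 1.71 ± 0.0195 in Sora-Treg cells (SD, n = 3), and the ratio of Hspd1 to Hspa9 went from 0.713 ± 0.00920 to 0.484 ± 0.0215. Neither ratio overlapped between the groups (exact two-sided permutation p = 0.1 for each, the smallest possible), and both were chosen after the values were seen. Counts of Hspd1 and Hspe1 carry a limit, since 39.7% and 36.1% of their stretches of 50 bases also occur in transcripts of other genes, and the treatment of such reads is not given in the sources used here. A further 7.6% of the exonic bases of Hspe1 overlap Hspd1 on the opposite strand.

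The shared stretch is shown because it holds repeats of GAA and TTC units, the letters of the heat shock element to which HSF1 binds. RefSeq promoters on GRCm38.p6, from 250 bases before to 50 after a listed start, were searched for the pair GAANNTTC or TTCNNGAA and for the triple GAANNTTCNNGAA or TTCNNGAANNTTC. Each pair reads the same on both strands, each triple is the reverse complement of the other, and a triple holds overlapping pairs. Capitals mark the units of each match, and Hspd1 and Hspe1 show the same 30 bases of the genome read from opposite strands (chr1:55088053-55088082), Dnajb6 chr5:29735843-29735872 on the plus strand and Hsph1 chr5:149636287-149636316 on the minus strand, downstream of its start. These 4 genes are those with a triple among the 69 members that have a promoter entry. The members without an entry, which were not searched, include Hsp90aa1, Hsp90ab1, Hspa8, Hspa9, Hsf1, Cct4 and St13.
Hspd1: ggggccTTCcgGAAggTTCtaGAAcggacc
Hspe1: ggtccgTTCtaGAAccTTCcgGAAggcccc
Dnajb6: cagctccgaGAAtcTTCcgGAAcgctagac
Hsph1: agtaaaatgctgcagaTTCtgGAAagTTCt

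Of the 4 genes with a triple, Hspd1, Hspe1 and Hsph1 were lower in Sora-Treg cells, whereas Dnajb6 was at log2 fold change 0.16 ± 0.04 (adjusted p = 0.00111), a call that library-size scaling did not keep (0.04). A triple was present for 6.35% of the 63 tested members with a promoter entry and for 0.486% of the 10701 tested genes with one. The pair was present for 17 of those members (27.0%), against 14.0% of tested genes and 17.0% of all 27025 genes in the promoter table. Of the 17 members with a pair, 5 were higher and 9 lower, with a median log2 fold change of -0.23. Of the 46 without it, 13 were higher and 15 lower, with a median of 0.03. Members with the same letters therefore stood on both sides of 0, as the next 3 promoters show, with Dnajb4 higher and Cct2 and Cct5 lower (chr3:152193841-152193870, chr10:117063399-117063428 and chr15:31601862-31601891, all on the minus strand). Each of these 3 genes, like Hspd1, also has a listed start whose promoter lacks the pair.
Dnajb4: ttcgttcgctgTTCtaGAAagtacagagac
Cct2: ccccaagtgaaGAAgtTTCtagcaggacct
Cct5: acagcggccgaTTCcaGAAgctactctgcg

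Among the 8 members listed as mitochondrial, a list made after their values were seen, 5 were lower and 0 higher, with a median log2 fold change of -0.33. Besides the 3 genes above these were Dnajc11, which belongs to the cristae machinery, at -0.37 ± 0.05 (adjusted p = 8.28e-07), and Dnajc15, a J protein of the inner membrane, at -0.30 ± 0.08 (adjusted p = 0.00293). Dnajc15 was not called with ctrl-Treg libraries 1 and 2 left out. That setting leaves 1 ctrl-Treg library and called fewer of all genes as well. Whether myeloid transcripts had a part in the calls lost there, here and below, was not tested. The list of mitochondrial members may not be complete, and Dnajc4 and Dnajc28, which are not on it, did not pass, at -0.05 and -0.16. Outside the members, of 12 further mitochondrial chaperones and proteases 3 were higher and 5 lower. Trap1, the mitochondrial HSP90, was at -0.26, Clpb at -0.32, and the protease subunits Clpx and Afg3l2 were at 0.30 and 1.03 on the log2 fold change scale, so that list moved in both directions.

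**Figure D2:**
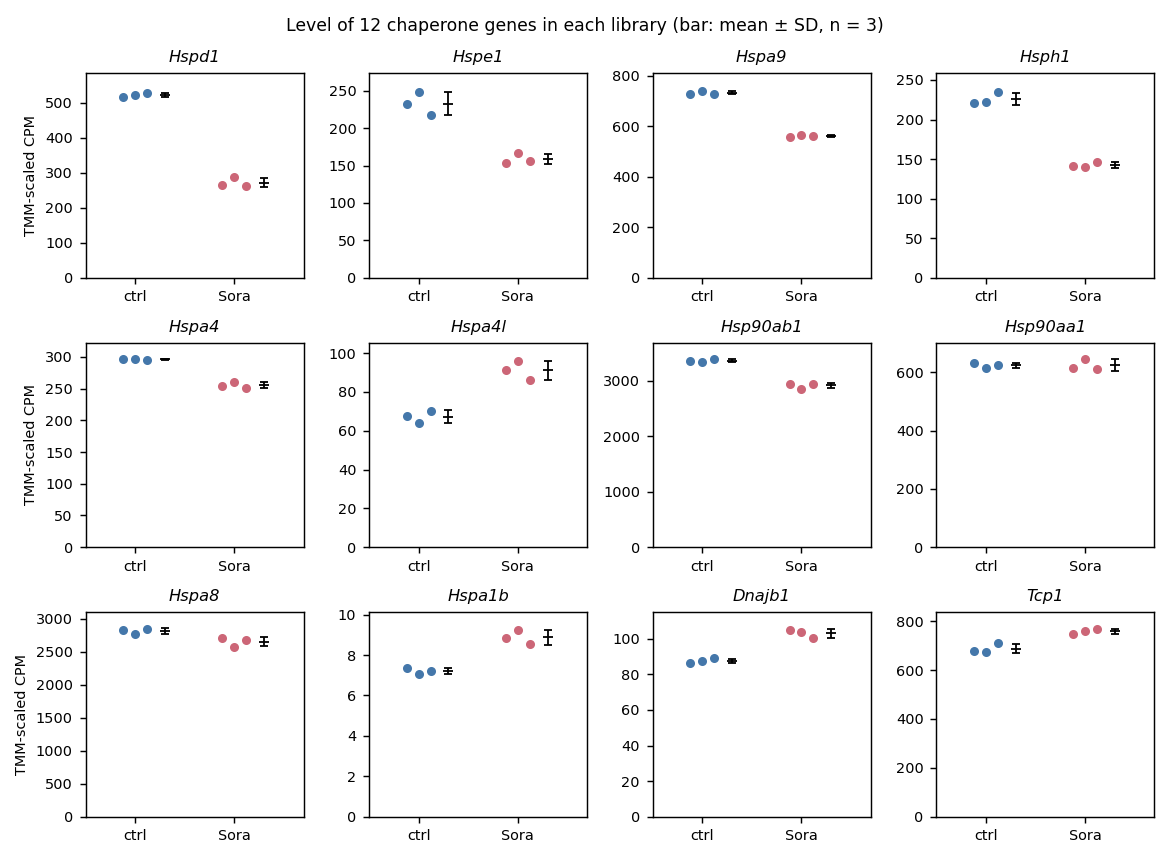
Level of 12 chaperone genes in each library (y axis, TMM-scaled CPM from 0, points; bars, mean ± SD, n = 3) for ctrl-Treg in blue and Sora-Treg in red. Hspd1 drops from 518 to 528 CPM down to 263 to 287 CPM, Hspa4l and Dnajb1 are higher in every Sora-Treg library, and the values of Hsp90aa1 overlap.

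HSP90 completes the folding of kinases and receptors. The cytosol holds a constitutive form, encoded by Hsp90ab1, and a form inducible by stress, encoded by Hsp90aa1. Per transcript length, Hsp90ab1 was at 1400, 1379 and 1403 FPKM across ctrl-Treg libraries, on a par with Hspa8 and above all other members. In CPM it went from 3362, 3332 and 3384 to 2948, 2856 and 2945, with no overlap and a log2 fold change of -0.20 ± 0.02 (adjusted p = 1.44e-08). Hsp90aa1 had 632, 616 and 624 CPM against 614, 647 and 612 CPM. Those groups overlapped, and the log2 fold change was 0.0006 with a 95% confidence interval from -0.05 to 0.06, though library-size scaling gave a called -0.11. The ratio of Hsp90aa1 to Hsp90ab1 counts, which needs no scaling, was 0.188, 0.185 and 0.184 in ctrl-Treg against 0.208, 0.227 and 0.208 in Sora-Treg libraries. It was higher in all 3 Sora-Treg libraries (exact two-sided permutation p = 0.1). Of the stretches of Hsp90aa1, 50.1% also occur in another gene, against 4.13% for Hsp90ab1.

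Genes for the helpers of HSP90, which are not members, leaned the same way as Hsp90ab1. Of 26 listed co-chaperones, 13 were lower, 3 higher and 10 not called, against 29.9% lower and 29.7% higher over all genes. Their median log2 fold change was -0.13. Fkbp4, an immunophilin of steroid receptor complexes, fell from 183 ± 4.28 to 128 ± 4.15 CPM (SD, n = 3; log2 fold change -0.52 ± 0.03, adjusted p = 7.58e-12). Ruvbl1 and Ruvbl2, ATPases that help HSP90 assemble large machines, were at -0.56 and -0.38, and Cacybp and Ppid at -0.54 and -0.51 on the same scale. The 3 called higher, named after their values were seen, were Rpap3 at 0.36 (adjusted p = 1.2e-05), Fkbp5 at 0.18 and Unc45a at 0.14.

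HSP70 genes shared no direction, with 2 higher, 3 lower and 4 not called of 9 tested. Over all genes tested, 29.7% were higher and 29.9% lower. Hspa8 encodes the constitutive HSC70 and had 2830, 2769 and 2845 CPM in ctrl-Treg against 2711, 2574 and 2681 CPM in Sora-Treg cells. The groups did not overlap, but the difference was small, with a log2 fold change of -0.08 ± 0.02 (adjusted p = 0.00291). Hspa14, which binds ribosomes and assists chains as they emerge, fell more, from 76.1, 74.5 and 74.9 CPM to 53.5, 51.1 and 54.0 CPM (log2 fold change -0.51 ± 0.04, adjusted p = 3.48e-10). Its J-domain partner on the ribosome, Dnajc2, named here after its values were seen, was at -0.18 ± 0.03 (adjusted p = 8.97e-05). Gm45902, annotated on the same strand, shares 15.6% of the stretches of Hspa14.

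The stress-inducible HSP70 genes were low in both groups. Hspa1b had 7.34, 7.06 and 7.20 CPM in ctrl-Treg against 8.83, 9.25 and 8.54 CPM in Sora-Treg cells, and all Sora-Treg libraries were higher (log2 fold change 0.30 ± 0.10, adjusted p = 0.0158). The call was lost under library-size scaling (0.19) and with ctrl-Treg libraries 1 and 2 left out (adjusted p = 0.142). Hspa1a, at 4.01, 4.26 and 4.92 CPM against 5.14, 5.27 and 4.66 CPM, overlapped between the groups (log2 fold change 0.20 ± 0.14, adjusted p = 0.257). These genes are near copies: 62.3% of the stretches of Hspa1b occur in Hspa1a, so the split of reads between them is uncertain, and 247 of the 250 bases before their starts were equal. The pair motif in both promoters is the same run (chr17:34972242-34972271 for Hspa1a and chr17:34959324-34959353 for Hspa1b, minus strand), shown because these are the inducible HSP70 genes.
Hspa1a: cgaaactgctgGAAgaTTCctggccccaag
Hspa1b: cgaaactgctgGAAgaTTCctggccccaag

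Summed, Hspa1a and Hspa1b held 0.00401, 0.00409 and 0.00426 of the count of Hspa8 across ctrl-Treg libraries and 0.00515, 0.00564 and 0.00493 across Sora-Treg libraries. The inducible form was thus a minute part of the constitutive form in both groups, with a ratio 1.27 times as high in Sora-Treg cells and no overlap (exact two-sided permutation p = 0.1). Sequence copies touch this ratio as well, since 67.3% of the stretches of Hspa8 occur in other genes. Hspa13, an HSP70-like protein of microsomes, was at 0.28 ± 0.08 (adjusted p = 0.00267), a call lost under library-size scaling (0.17). Hspa2, Hspa12a and Hspa1l did not pass, with log2 fold changes of 0.23, 0.15 and -0.02 at control means of 4.30, 0.759 and 0.641 CPM.

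**Figure D3:**
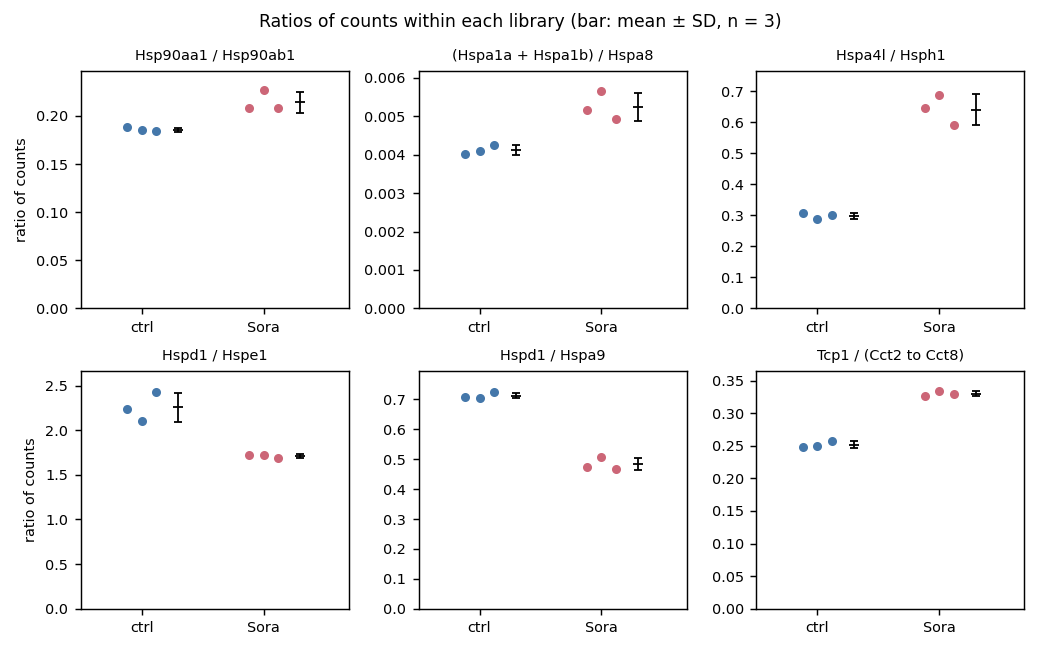
Ratios of counts between chaperone genes within each library (y axes from 0, no unit; points, libraries; bars, mean ± SD, n = 3) for ctrl-Treg in blue and Sora-Treg in red. No ratio overlaps between the groups: Hsp90aa1 to Hsp90ab1, inducible to constitutive HSP70, Hspa4l to Hsph1 and Tcp1 to the other CCT subunits are higher in Sora-Treg libraries, and Hspd1 to Hspe1 and Hspd1 to Hspa9 are lower.

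The HSP110 proteins, large relatives of HSP70 that act as its nucleotide exchange factors, moved in opposite directions. Hsph1, which encodes the inducible HSP105, had 221, 222 and 235 CPM in ctrl-Treg against 141, 140 and 146 CPM in Sora-Treg cells (log2 fold change -0.67 ± 0.03, adjusted p = 5.4e-14). Hspa4 had 296, 296 and 296 CPM against 254, 260 and 251 CPM (log2 fold change -0.21 ± 0.03, adjusted p = 6.54e-07). Both were lower in every Sora-Treg library. Hspa4l, by contrast, had 67.7, 63.7 and 70.4 CPM against 91.2, 95.8 and 86.2 CPM, all higher in Sora-Treg cells (log2 fold change 0.44 ± 0.05, adjusted p = 1.99e-08). The ratio of Hspa4l to Hsph1 counts, chosen after the values were seen, accordingly went from 0.298 ± 0.00974 to 0.641 ± 0.0486 (SD, n = 3), 2.15 times as high, with no overlap and the smallest exact permutation p of 0.1. All 3 calls held under library-size scaling and with ctrl-Treg libraries 1 and 2 left out.

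CCT, the chaperonin of the cytosol, folds actin and tubulin in stacked rings of 8 different subunits, each encoded by a gene of its own. Of the 8 genes, 7 were lower in Sora-Treg cells and 1, Tcp1, was not. Cct3 fell most, from 270, 268 and 267 CPM to 211, 209 and 208 CPM (log2 fold change -0.36 ± 0.03, adjusted p = 1.88e-10). The other log2 fold changes were -0.31 for Cct4, -0.26 for Cct2, -0.25 for Cct5, -0.23 for Cct6a, -0.18 for Cct8 and -0.16 for Cct7, each with an SE of 0.03, and the groups overlapped for none of the 7. All 7 calls held under library-size scaling and without ctrl-Treg libraries 1 and 2. Cct6a shares 12.5% of its exonic bases with Psph on the opposite strand, which was at -0.87, and whether strand was used in counting is not given in the sources used here.

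Tcp1 encodes the subunit CCT1 and had 678, 675 and 709 CPM in ctrl-Treg against 746, 761 and 767 CPM in Sora-Treg cells. In CPM every Sora-Treg library was higher (log2 fold change 0.14 ± 0.03, adjusted p = 5.51e-05), whereas under library-size scaling the change was 0.03 and not called. The ratio of Tcp1 to the sum of Cct2, Cct3, Cct4, Cct5, Cct6a, Cct7 and Cct8, chosen after the values were seen, went from 0.252 ± 0.00500 to 0.330 ± 0.00370 (SD, n = 3) without overlap (exact permutation p = 0.1). That ratio does not depend on scaling. Stretches shared with other genes made up 0.21% of Tcp1 and at most 4.37% of the other subunits, and the Tcp1 exons that overlap Acat3 on the opposite strand face a gene with at most 35 counts. A further 2.8% of the exonic bases of Tcp1 overlap Mrpl18 on the opposite strand, which had up to 1721 counts. Cct6b, the testis form of CCT6, was at 0.232 FPKM in ctrl-Treg cells and did not pass (log2 fold change -0.12 ± 0.41).

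**Figure D4:**
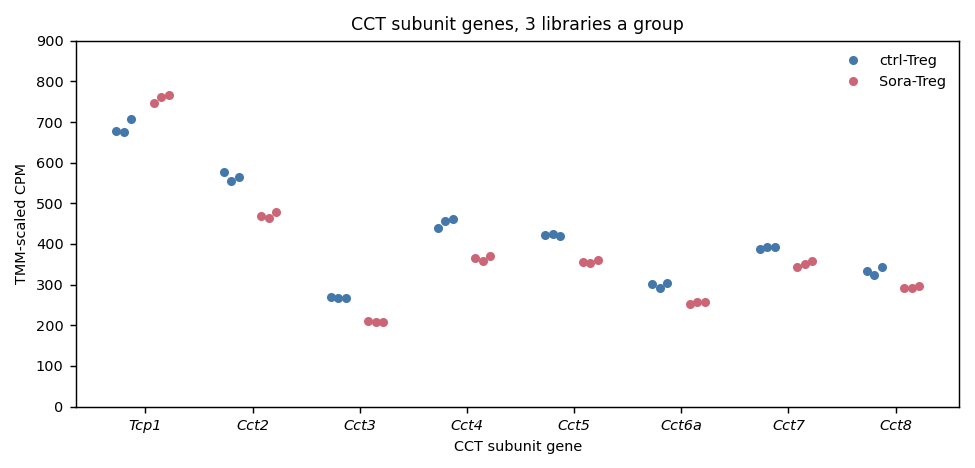
Level of the 8 CCT subunit genes in each library (y axis, TMM-scaled CPM from 0; 3 points a group) in ctrl-Treg (blue) and Sora-Treg (red) cells. Red points lie below blue points for Cct2 to Cct8, whereas Tcp1 is at 675 to 709 CPM in ctrl-Treg against 746 to 767 CPM in Sora-Treg libraries, a difference not called under library-size scaling (log2 fold change 0.03). CPM is not per length, so heights of different genes are not to be compared.

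Prefoldin, which hands actin and tubulin to CCT, and the other cofactors of tubulin folding are not members and were mixed. Of 14 genes, 4 were lower and 3 higher, against 29.9% and 29.7% of all genes. Pfdn2 was at -0.36 and Pfdn4 at -0.50, and Pfdn5 and Txndc9 at 0.17 and 0.20 on the log2 fold change scale.

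J proteins form the largest family, with 42 members. Of the 38 tested, 15 were higher and 11 lower, against 29.7% and 29.9% of all genes. Of 10 tested DNAJB genes 7 were higher and 0 lower, with a median log2 fold change of 0.26, of 4 DNAJA genes 0 were higher and 2 lower, and of 24 tested DNAJC genes 8 were higher and 9 lower. Under library-size scaling, and likewise with ctrl-Treg libraries 1 and 2 left out, 4 DNAJB genes were higher and 0 lower.

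Dnajb1 encodes HSP40, the main stress-inducible partner of HSP70, and had 86.4, 87.7 and 88.9 CPM in ctrl-Treg against 105, 104 and 100 CPM in Sora-Treg cells. No Sora-Treg library reached down to the ctrl-Treg range (log2 fold change 0.23 ± 0.04, adjusted p = 9.32e-06). Dnajb4, a close relative, went from 10.5, 10.7 and 10.3 CPM to 14.6, 17.0 and 15.6 CPM (log2 fold change 0.58 ± 0.09, adjusted p = 4.01e-06). Dnajb14, which sits in the ER membrane, went from 11.9, 12.1 and 12.3 CPM to 20.6, 19.4 and 17.7 CPM (log2 fold change 0.67 ± 0.08, adjusted p = 2.33e-07). In contrast to these, Dnaja1 and Dnaja2, the general cytosolic J proteins, with ctrl-Treg levels of 59.5 and 63.5 FPKM against 28.3 FPKM for Dnajb1, were slightly lower in Sora-Treg cells, at -0.12 ± 0.04 (adjusted p = 0.00443) and -0.18 ± 0.03 (adjusted p = 0.000144). Of the stretches of Dnaja1, 17.7% occur in other genes, and of those of Dnajb6 22.4%. Dnajc7, which binds HSP70 and HSP90 at once, was at -0.21 ± 0.03 (adjusted p = 2.5e-06).

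Among DNAJC genes the changes followed no single direction. Dnajc21, which takes part in maturation of the large ribosomal subunit, went from 89.0, 90.8 and 90.4 CPM to 127, 131 and 131 CPM (log2 fold change 0.53 ± 0.03, adjusted p = 7.76e-12). Dnajc10, the ER disulfide reductase ERdj5, was at 0.46 ± 0.04 (adjusted p = 5.87e-10), and Dnajc1, an ER membrane J protein that touches the ribosome, at 0.45 ± 0.04 (adjusted p = 1.91e-09). On the lower side, Dnajc27, which joins a J domain to a Rab-like GTPase, went from 26.7, 30.7 and 29.3 CPM to 17.2, 15.5 and 19.0 CPM (log2 fold change -0.74 ± 0.08, adjusted p = 2.5e-08). Dnajc9, a chaperone of histones H3 and H4, was at -0.31 ± 0.04 (adjusted p = 1.36e-06). Groups did not overlap for any of these 5 genes.

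Dnajc6, which encodes auxilin, a factor that strips clathrin from vesicles and is best known in neurons, had the largest fold change of all called members, at a low level. Its counts were 88, 84 and 54 across ctrl-Treg libraries and 11, 23 and 26 across Sora-Treg libraries. The groups were well apart (log2 fold change -1.77 with a 95% confidence interval from -2.42 to -1.11, adjusted p = 4.28e-05).

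By compartment, a grouping made after the values were seen, 8 members were listed for the ER, and all were higher under TMM scaling. They were Hspa13, Dnajb12, Dnajb14, Dnajc1, Dnajc10, Dnajc14, Dnajc16 and Dnajc18, with a median log2 fold change of 0.27. This list may not be complete, and Dnajc25, which is not on it, did not pass, at -0.004 ± 0.12 (adjusted p = 0.979). Under library-size scaling 4 of the 8 were called higher, and with ctrl-Treg libraries 1 and 2 left out 5 were. Dnajc14 shares 17.0% of its exonic bases with Ormdl2 on the opposite strand. The 5 ER chaperones left out of the members did not share that direction. Dnajb9 was at 0.75 and Hsp90b1 at 0.10, whereas Hspa5 (BiP, the ER HSP70), Dnajb11 and Dnajc3 were at -0.29, -0.42 and -0.23.

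**Figure D5:**
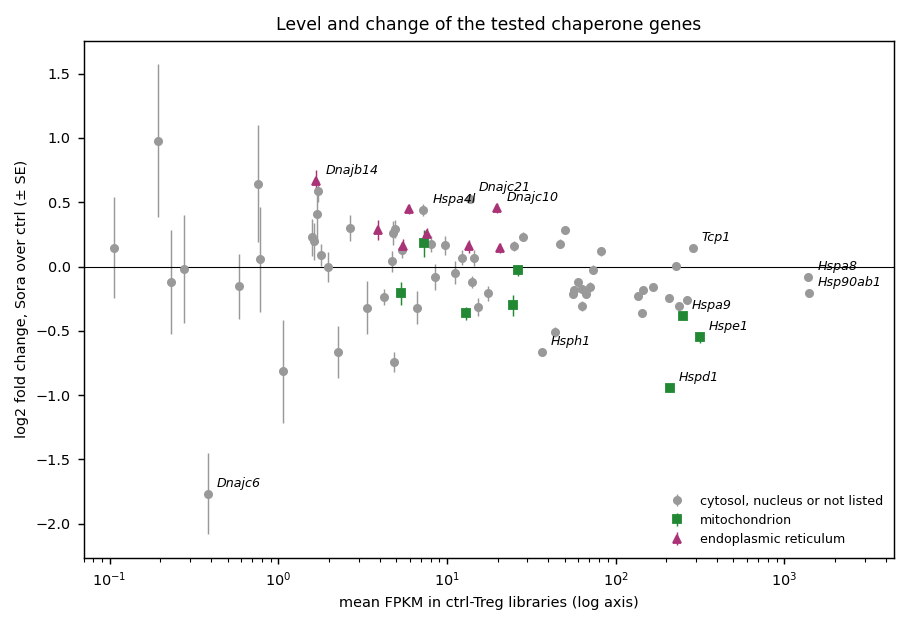
Log2 fold change (y axis, with SE) of the tested chaperone genes against their mean level in ctrl-Treg cells (x axis, FPKM, log axis). Squares mark members listed as mitochondrial, triangles those listed for the ER, and circles the rest. At 100 FPKM or more, a cut made after the values were seen, 12 of 14 genes are lower. All 8 triangles lie above 0, and 5 of the 8 squares passed below it. Hsp90aa1, just above 0, is below it under library-size scaling.

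The abundant members were mostly lower. Of the 14 members at 100 FPKM or more in ctrl-Treg cells, 12 were lower (85.7%) and 1 higher, where 32.7% of the 492 genes of that level were lower. Of 28 members between 10 and 100 FPKM, 14 were lower, where 36.9% of genes of that level were, and of 36 members under 10 FPKM 13.9% were lower and 30.6% higher, against 25.6% and 26.2%. The 12 were Hsp90ab1, Hspa8, the 7 CCT genes from Cct2 to Cct8, Hspd1, Hspe1 and Hspa9. The cuts at 10 and 100 FPKM were made after the values were seen and rest on the ctrl-Treg level alone, which also enters the fold change. These shares are descriptions without a test.

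The BAG genes, of which several encode nucleotide exchange factors that tie HSP70 to other tasks, changed little. Bag6, which guards membrane proteins on their way to the ER, was at 0.18 ± 0.03 (adjusted p = 4.91e-05) and Bag1, which links HSP70 to the proteasome, at -0.16 ± 0.04 (adjusted p = 0.00115), and the Bag6 call was lost under library-size scaling (0.06). Bag3, the stress-inducible member that directs clients to autophagy, had 11.7, 11.5 and 12.4 CPM in ctrl-Treg against 13.5, 16.4 and 12.7 CPM in Sora-Treg cells. Here Sora-Treg library 2 stood above the rest: the log2 fold change was 0.26 ± 0.10 (adjusted p = 0.0235) with it and 0.15 (adjusted p = 0.201) without it. The call was also lost without ctrl-Treg library 1 (adjusted p = 0.0712) or 2 (adjusted p = 0.0828) and under library-size scaling (0.14). Bag2, Bag4 and Bag5 did not pass, at 0.16, 0.13 and 0.07, and Bag2 passed without Sora-Treg library 2 (adjusted p = 0.0407).

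Of the HSP70 cofactors, Hspbp1, an exchange factor, had 25.8, 27.0 and 24.3 CPM against 20.8, 19.5 and 21.8 CPM (log2 fold change -0.31 ± 0.07, adjusted p = 0.000477), and was not called without ctrl-Treg libraries 1 and 2 (adjusted p = 0.0747). St13, the HSP70-interacting protein Hip, did not pass at -0.02 ± 0.03, but was called under library-size scaling (-0.14). Hspbap1, which binds HSP27 and was named after its values were seen, did not pass, at 0.09 ± 0.09 (adjusted p = 0.385).

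Both heat shock factor genes were lower. Hsf1 had 44.7, 43.5 and 40.8 CPM in ctrl-Treg against 38.8, 34.7 and 38.3 CPM in Sora-Treg cells (log2 fold change -0.21 ± 0.06, adjusted p = 0.00229), and was not called with ctrl-Treg libraries 1 and 2 left out (-0.13, adjusted p = 0.208). Hsf2 had 38.8, 38.0 and 40.6 CPM against 32.4, 37.1 and 30.1 CPM, with 1 Sora-Treg library close to the ctrl-Treg range (log2 fold change -0.24 ± 0.06, adjusted p = 0.00294). Of 13 tested genes on a list of HSF1 targets outside the members, 4 were higher and 7 lower, against 29.7% and 29.9% of all genes. Of the 7 lower, 5 are also on the co-chaperone list: Fkbp4, Cacybp, Chordc1, Stip1 and Ahsa1, an activator of HSP90, at -0.37. Dedd2 and Cirbp were at 0.52 and 0.52. Cirbp and Rbm3 encode RNA-binding proteins induced by cold, and without both genes 3 were higher and 6 lower of 11. Of 12 immediate early genes, a list of early stress and stimulation responses, 8 were higher and 3 lower, with Zfp36 at 1.17, Junb at 0.51, Jund at 0.49, Ier2 at -0.53 and Fos at 0.71.

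Small heat shock proteins, which hold unfolded proteins without ATP, were scarce. Hspb6 had 4.39, 4.23 and 3.98 CPM against 3.63, 1.79 and 2.56 CPM (log2 fold change -0.67 ± 0.20, adjusted p = 0.00713), and was not called with ctrl-Treg libraries 1 and 2 left out (adjusted p = 0.135). Hspb1, which encodes HSP27 (HSP25 in the mouse), had 40, 38 and 23 counts against 25, 15 and 11. In CPM 1 Sora-Treg library lay above the lowest ctrl-Treg library, and the log2 fold change of -0.81 ± 0.40 did not pass (adjusted p = 0.0850), although it did without Sora-Treg library 1 (-1.25, adjusted p = 0.0219) and under library-size scaling (-0.93). A pseudogene shares 48.8% of the stretches of Hspb1. Hspb11, a ciliary transport protein despite its name, and Hspb9 did not pass, at 0.07 and 0.64.

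The 9 members below the count filter were Hspa12b, Cct8l1, Dnajb7, Dnajc22, Dnajc5b, Dnajc5g, Hspb2, Hspb7 and Hspb8, with at most 16 counts in any library. Hspa12b, an atypical HSP70 of endothelium, was the one at 16, with 1, 0 and 2 counts in ctrl-Treg against 6, 4 and 16 counts in Sora-Treg libraries. All ctrl-Treg libraries were under the floor of 3 counts, and no fold is given for it here.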

How the data were processed

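Groups and replicate numbers came from the sample titles. Counts, not normalized, and FPKM values were deposited by the authors, both by gene symbol. Each deposited FPKM value equalled the count over a fixed length per gene and the library total (largest relative difference of the implied length 1.64e-06), so FPKM between groups carries library-size scaling. It served for levels between genes and, in limma, as an alternative. The methods of the study describe BGISEQ-500 reads aligned to GRCm38 with Bowtie2, whereas the submitters' processing notes list fastp, HISAT2, HTSeq, R 3.2.0, DESeq2 and GRCm39. Strand and multi-mapping settings were not given in the sources used here, so counts of overlapping genes and near copies are uncertain.

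The counts were tested with edgeR 4.0.16 in R 4.3.3 (quasi-likelihood test, TMM scaling, filterByExpr, no covariate) over 13463 genes, with Benjamini-Hochberg adjustment over all of them. SEs are those implied by the F statistic, and CPM values are TMM-scaled. Ratios within libraries were compared by exact two-sided permutation tests. Scripts were tested on simulated data. Also tried were other scalings (RLE, upper quartile, library size) and filters, DESeq2 1.42.0, robust fits, a replicate block, leaving out each library, and limma 3.58.1 on log2(FPKM + 1) or log2(FPKM + 0.1).

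The members and gene lists, those of HSP90 co-chaperones, prefoldin and CCT cofactors, mitochondrial and ER chaperones, HSF1 targets, immediate early genes and cell type markers, were chosen with earlier results of these data known, and support no more than a description. Members named were all tested ones outside the J proteins except Hspbap1; of the J proteins, those beyond 2-fold, the 5 highest and 5 lowest called with a log2 CPM of 3 or more on average, and Dnaja1, Dnaja2, Dnajb1, Dnajb6 and Dnajc7; of other lists at most 5 genes by adjusted p. The others named were chosen after their values were seen. Promoter entries of RefSeq on GRCm38.p6 matched 69 of the 87 members.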

Additional observations from a re-analysis of the deposited data

How the results depend on the processing

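Of 54 members named by rule and tested, 40 kept their call under every alternative that tested them, and the called ones among them kept their direction. A change of sign between values that were not called was not counted. The 21 higher and 31 lower members became 10 and 36 under library-size scaling, 11 and 36 by limma on log2(FPKM + 1) or log2(FPKM + 0.1), 10 and 35 by limma without a filter, and 13 and 25 without ctrl-Treg libraries 1 and 2. Leaving out each library in turn gave 19 to 21 higher and 30 to 32 lower. All genes higher numbered 3994, against 2357, 2350 and 2577 by limma with a pseudocount of 1, of 0.1 and without a filter. FPKM values carry library-size scaling by construction. Beyond 2-fold, library-size scaling called 2 members lower (Hspd1 and Dnajc6) and leaving out each library 1 to 2 (Hspb1 joined without Sora-Treg library 1). Beyond 2-fold higher there was 1 member (Hspa12b) when every gene with a count was tested and 1 (Hspa12b) by DESeq2, and 0 to 1 with each library left out (Dnajb8, at under 1 CPM, without ctrl-Treg library 2). Hsp90aa1 changed sign and was then called lower. It was at -0.1148 under library-size scaling and at -0.1144, -0.1149 and -0.1144 by limma with a pseudocount of 1, of 0.1 and without a filter.

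Replicate numbers did not pair the libraries (correlations of same-numbered deviations -0.04, 0.06 and 0.03). With the replicate number as a block, 21 members were higher and 31 lower, 0 and 1 beyond 2-fold, and 4057 and 4064 genes of all were higher and lower.

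Low counts limit Dnajc6, Hspb1, Hspb6, Hspb9, Dnajb8, Hspa1l, Hspa12a and Cct6b, and near copies limit Hspa1a, Hspa1b, Hspa8, Hsp90aa1, Hspd1, Hspe1 and Hspb1.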
